A study of Homo sapiens with 18 samples.

Results

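Lysosomal cathepsins, the subunits of the vacuolar proton pump (V-ATPase) and 4 lysosomal membrane or regulatory genes were followed in U2OS cells treated with cytarabine (Ara-C), a nucleoside drug that halts DNA synthesis. The members were chosen by name from the authors' gene table: every protein-coding gene called CTS plus 1 letter, every gene whose symbol starts with ATP6V0 or ATP6V1, and LAMP1, LAMP2, MCOLN1 and TFEB. This gave 40 of the 25296 genes in the table, namely 14 cathepsins, 9 genes of the membrane sector V0, 13 with an ATP6V1 symbol and the 4 others (11 of the 13 encode subunits of the cytosolic sector V1, and the rest are the readthrough gene ATP6V1G2-DDX39B and ATP6V1FNB, named for its place beside ATP6V1F). Of these, 38 had enough reads to enter the test. CTSW and ATP6V0D2 did not, with at most 4 and 11 estimated counts in any library.

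U2OS is a human osteosarcoma line, and 3 derivatives of it were compared. One carried the empty retroviral vector MigR1 (EV), one the same vector with wild-type DNMT3A, a DNA methyltransferase (WT), and one with mutant DNMT3A (MUT), whose substitution the series text and the sample labels spell differently (R882C and R882H). All 3 lines carry the vector. Each line was plated in biological triplicate and sampled untreated (the series text calls these cells a vehicle control) or after 24 h with 10 µM Ara-C, which gives 18 libraries of total RNA in 6 groups of 3. Whether a line was 1 clone or a pool of transduced cells is not given in the sources used here.

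Cathepsins are proteases that digest protein inside the lysosome; most are cysteine proteases, while CTSD and CTSE are aspartic proteases and CTSA is a serine carboxypeptidase. Most cathepsins work best in an acidic lumen, which the V-ATPase provides. Its V1 sector hydrolyses ATP in the cytosol, and its V0 sector carries protons across the membrane. LAMP1 and LAMP2 are abundant glycoproteins of the lysosomal membrane, MCOLN1 is a calcium channel in it, and TFEB is a transcription factor that drives many lysosomal genes through a short promoter element built on the E-box CACGTG. Cells of bone tumours resemble mesenchymal cells, whereas CTSK and ATP6V0D2 are best known from osteoclasts.

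Promoter sequence was looked at because TFEB is itself a member. RefSeq promoter windows (build GRCh38.p14, 250 bases before to 50 bases after a transcript start) were at hand for 26 of the 40 members. CACGTG, which reads the same on both strands, was present in the window of 9 of them, or 34.6%. Over the 11750 tested genes with a window the share was 12.1%, and over all 35116 windows it was 7.26%. The longer letters TCACGTG, searched on both strands and always containing a CACGTG, were found in the same number of members (9), in 6.83% of the tested genes and in 3.71% of all windows. LAMP1 held 6 matches, MCOLN1, CTSA, CTSF and ATP6V0B held 2 each, and ATP6V0D1, ATP6V0E2, ATP6V1G1 and CTSD held 1 each. TFEB had 3 windows and no match in any of them. A match describes letters in a window and not binding.

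The upstream stretches of 5 members are printed with the E-box in capitals, 5′ to 3′ on the gene's strand and ending 1 base before the transcript start. LAMP1 and MCOLN1 are shown as members with several matches, and CTSF, ATP6V0D1 and ATP6V0E2 as members with matches that rose with Ara-C in every line (values are given further on). The sixth LAMP1 match spans the start site and lies outside the printed stretch.
LAMP1, chr13:113296989-113297238, plus strand: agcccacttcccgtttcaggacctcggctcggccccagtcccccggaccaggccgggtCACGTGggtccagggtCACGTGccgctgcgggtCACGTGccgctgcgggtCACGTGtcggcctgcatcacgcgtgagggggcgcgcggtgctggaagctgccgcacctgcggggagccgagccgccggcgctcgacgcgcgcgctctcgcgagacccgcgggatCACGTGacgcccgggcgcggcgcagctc
MCOLN1, chr19:7522374-7522623, plus strand: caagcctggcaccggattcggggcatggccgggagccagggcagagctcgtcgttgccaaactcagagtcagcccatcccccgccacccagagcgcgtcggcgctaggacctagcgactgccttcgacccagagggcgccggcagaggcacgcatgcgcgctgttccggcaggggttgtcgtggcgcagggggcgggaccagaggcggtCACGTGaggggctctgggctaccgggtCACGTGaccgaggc
CTSF, chr11:66568607-66568856, minus strand: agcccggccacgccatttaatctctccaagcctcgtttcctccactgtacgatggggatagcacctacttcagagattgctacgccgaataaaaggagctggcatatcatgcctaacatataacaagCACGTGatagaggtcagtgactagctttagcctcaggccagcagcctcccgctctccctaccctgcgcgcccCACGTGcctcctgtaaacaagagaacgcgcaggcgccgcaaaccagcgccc
ATP6V0D1, chr16:67481158-67481407, minus strand: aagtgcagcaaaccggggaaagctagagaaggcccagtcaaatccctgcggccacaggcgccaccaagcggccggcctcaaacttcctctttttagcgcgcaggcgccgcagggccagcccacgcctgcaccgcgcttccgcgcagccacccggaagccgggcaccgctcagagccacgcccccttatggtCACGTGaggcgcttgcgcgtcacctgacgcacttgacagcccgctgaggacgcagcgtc
ATP6V0E2, chr7:149872718-149872967, plus strand: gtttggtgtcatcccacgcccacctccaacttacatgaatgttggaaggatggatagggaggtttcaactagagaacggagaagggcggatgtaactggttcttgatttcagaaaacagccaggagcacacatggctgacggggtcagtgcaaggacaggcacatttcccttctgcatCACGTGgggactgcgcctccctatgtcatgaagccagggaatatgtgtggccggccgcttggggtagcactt

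**Figure D1:**
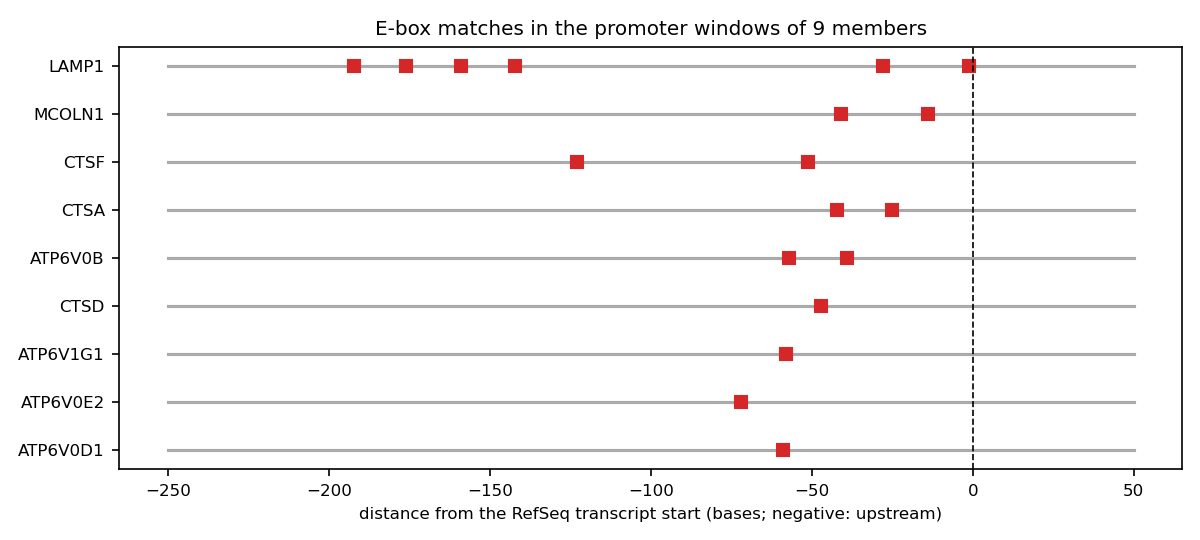
Position of each CACGTG match (red squares, first base) along the promoter window of the 9 members that hold one; the x axis is the distance in bases from the RefSeq transcript start, and grey lines are the windows, which begin 250 bases before it. Every match starts before the transcript start, and LAMP1 alone has a group of 4 between -192 and -142.

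Library totals ran from 15.4 to 21.9 M estimated counts, of which the members took 0.269% to 0.34% in untreated and 0.351% to 0.394% in treated libraries. The scaling factors (TMM) were 0.862 to 0.9615 in untreated and 1.04 to 1.11 in treated libraries. All CPM values and fold changes with Ara-C therefore depend on this scaling. DNMT3A, the gene carried by the vector, was at 26.8 CPM (counts per M of the scaled library) in untreated EV, 133 in untreated WT and 456 in untreated MUT, with the lowest and highest MUT libraries at 253 and 615. The untreated MUT libraries stood apart from each other, with a biological coefficient of variation of 0.216 over all genes, followed by treated EV with 0.132; the other groups were between 0.0397 and 0.0694. Where leaving out 1 library ended a member's call in MUT or moved its value by over 1.5 times, this is given beside the result. Mesenchymal markers summed to 3670 to 4160 CPM in untreated and 2680 to 3170 CPM in treated libraries, led by VIM, which fell in all lines. Of the 7 tested, 2 (EV), 2 (WT) and 3 (MUT) were higher with Ara-C, COL1A2 in all lines, and 1 was lower in each. Osteoclast markers summed to between 66.4 and 94.6 CPM, of which NFATC1 made most, while ACP5, CALCR and TNFRSF11A were under 1 CPM on average in each group. Of the 3 tested (NFATC1, MMP9 and ITGB3), 1 (EV), 0 (WT) and 2 (MUT) were higher with Ara-C, and MMP9 was lower in each line. All 3 were higher in untreated WT and in treated MUT than in EV. Leukocyte markers summed to 1.96 to 4.56 CPM untreated and 6.23 to 12.9 CPM treated; LAPTM5, itself a lysosomal membrane protein, passed in 3 lines and CSF1R in 1, while PTPRC averaged at most 1.06 CPM and CD14 at most 0.0835 CPM in any group. Epithelial markers summed to 16.5 to 19.4 CPM in untreated and 29.3 to 31.2 in treated EV, 13.3 to 14.9 and 15.7 to 23.3 in WT, and 19.3 to 23.7 and 26.2 to 35.6 in MUT; of the 5 tested, CDH1 and CLDN4 were higher with Ara-C in all lines and 0 were lower. The part of these markers in the results was not tested.

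To compare members with each other, levels were divided by exonic length in kb (the Ensembl canonical transcript of GENCODE). In untreated EV cells the proton-conducting ring subunit ATP6V0C was highest with 229 ± 4.2 CPM per kb (SD, n = 3), followed by LAMP1 with 174 ± 4.5, CTSZ with 171 ± 3.1, the ring subunit ATP6V0B with 166 ± 7.0 and CTSB with 136 ± 1.8. LAMP1 and CTSZ, and CTSZ and ATP6V0B, differed by less than the larger of their SDs, whereas CTSB lay further below ATP6V0B. At the low end stood CTSK with 0.558 ± 0.14, the subunit-a gene ATP6V0A1 with 0.326 ± 0.10, CTSS with 0.311 ± 0.068, ATP6V1G2 with 0.147 ± 0.15, CTSE with 0.143 ± 0.014 and CTSO with 0.103 ± 0.058 CPM per kb. Among the 3 genes for subunit a in the member list, ATP6V0A2 (3.00 ± 0.13) was above ATP6V0A4 (0.923 ± 0.26), which was above ATP6V0A1. The order depends on the length used: dividing by the union of all annotated exons moved CTSZ from rank 3 to rank 17 and CTSC from rank 7 to rank 21.

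**Figure D2:**
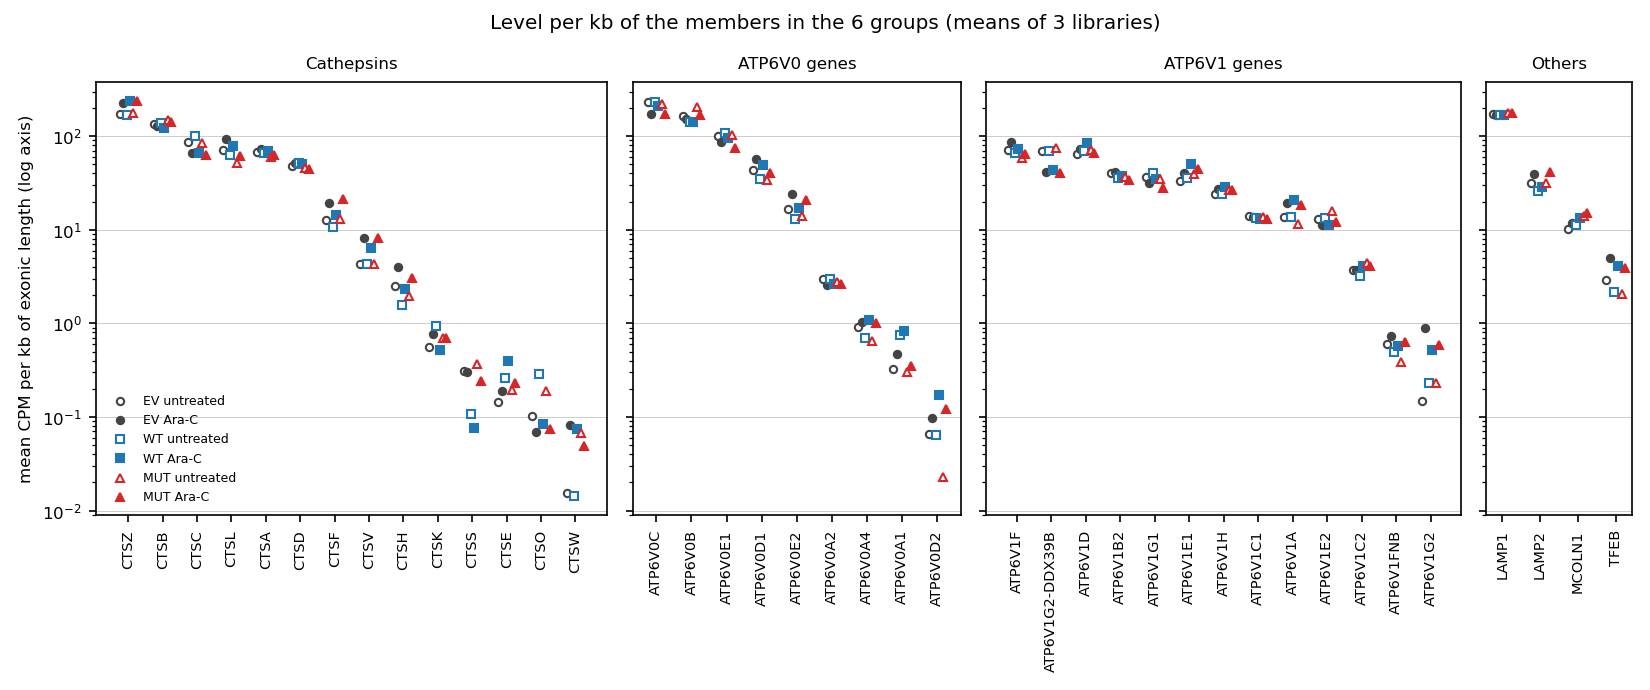
Mean CPM per kb of exonic length (y axis, log scale) of each member in the 6 groups (open symbols untreated, filled symbols Ara-C; circles EV, squares WT, triangles MUT; means of 3 libraries, group means of 0 not drawn). The members span from ATP6V0C with 229 to CTSW with 0.0153 in untreated EV.

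Ara-C changed the level of 17 of 38 members in EV, 18 in WT and 19 in MUT, in both directions. In EV 12 were higher and 5 lower, in WT 13 and 5, and in MUT 12 and 7 (edgeR's quasi-likelihood test, Benjamini-Hochberg adjusted over 18226 genes, adjusted p under 0.05). The members' shares of 44.7% (EV), 47.4% (WT) and 50% (MUT) were near those of all genes, which were 49.1%, 49.0% and 56.3%. Among all genes 26.1% were higher and 22.9% lower in EV, 26.3% and 22.7% in WT, and 30.4% and 25.9% in MUT. The median member log2 fold change was 0.18 in EV, 0.16 in WT and 0.043 in MUT, beside 0.051, 0.026 and 0.054 over all genes. The lower calls fell from 5 to 3 in EV without treated replicate 1, without treated replicate 3 or without untreated replicate 1, and in WT from 5 to 3 without treated replicate 2 or untreated replicate 1. In MUT the calls were 9 higher and 7 lower without untreated replicate 1, 10 and 8 without replicate 2, and 13 and 5 without replicate 3.

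Across the 3 lines 8 members were higher in each (21.1% of the 38, against 18.9% of all genes) and 3 were lower in each (7.89%, against 16.4%). TFEB, CTSV, CTSH, CTSF, CTSZ, ATP6V1A, ATP6V0E2 and ATP6V0D1 made up the first set, and CTSC, ATP6V1E2 and the readthrough gene ATP6V1G2-DDX39B the second. A further 16 members passed in 1 or 2 lines, 11 in none, and 0 passed in opposite directions. For these counts the shares over all genes were not computed, so they only describe the members. When each of the 18 libraries was left out in turn, 6 of the 8 and 2 of the 3 passed in all lines every time, a count made for members only. ATP6V0D1 failed in MUT in 4 of the 18 fits, CTSF failed in WT without untreated replicate 1, and ATP6V1E2 passed in EV in 6 of the 18 and in WT in 16. The 3 comparisons use separate libraries but share the estimate of the spread.

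**Figure D3:**
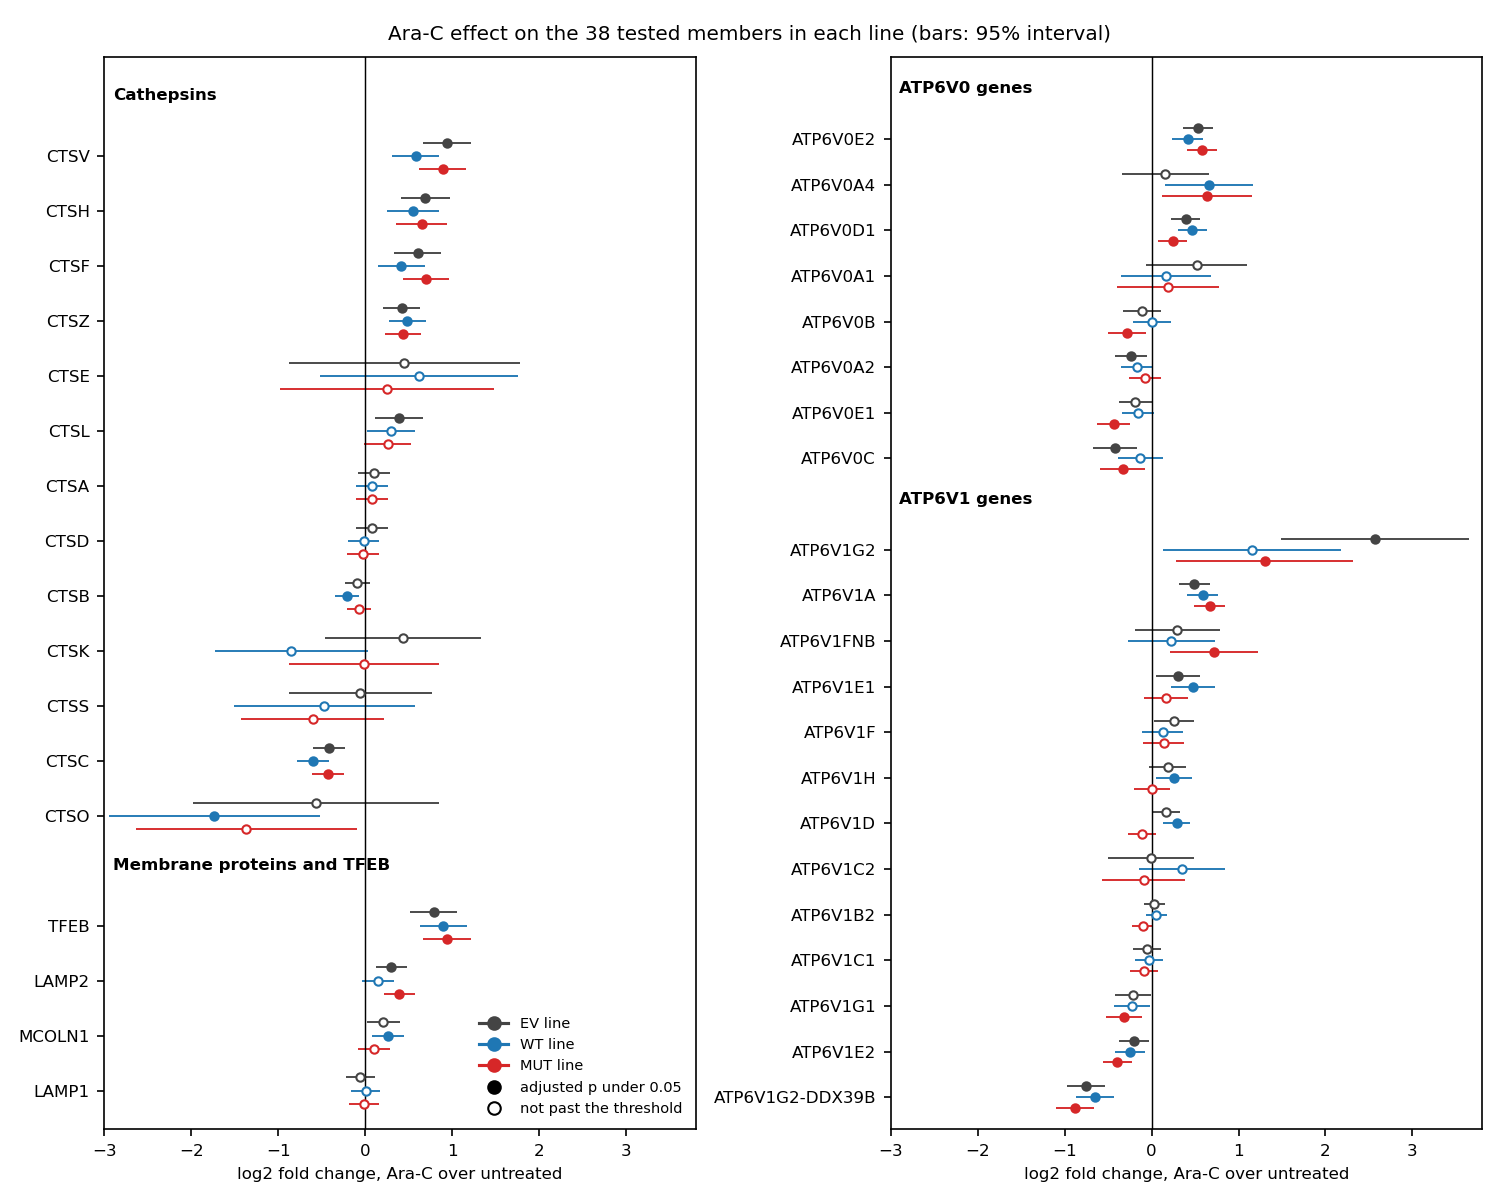
Log2 fold change of Ara-C over untreated (x axis) for the 38 tested members in EV (grey), WT (blue) and MUT (red); bars are 95% intervals, filled points passed adjusted p under 0.05 and open points did not. TFEB, CTSV, CTSH, CTSF and CTSZ lie right of 0 in all lines, CTSC lies left of 0, and LAMP1 sits at 0.

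TFEB, the transcription factor among the members, rose in every line. Untreated EV libraries 1 to 3 had 6.42, 7.41 and 6.57 CPM and treated ones 13, 11.5 and 10.8. In WT the values were 5.64, 4.71 and 4.84 untreated and 8.90, 8.64 and 10.8 treated, and in MUT 4.41, 4.53 and 5.31 and 9.62, 9.04 and 8.67. Every treated library was above every untreated library of any line. The log2 fold changes were 0.79 (EV), 0.90 (WT) and 0.94 (MUT) (SE 0.13, 0.13 and 0.13, adjusted p = 4.49e-05, 1.29e-05 and 6.58e-06), or 1.73-fold, 1.87-fold and 1.92-fold. In RNA of a whole culture, more RNA per cell and more cells with the RNA cannot be told apart.

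LAMP1, the membrane protein with the most E-box matches, did not pass in any line. Its libraries held 484, 466 and 461 CPM in untreated and 471, 415 and 472 in treated EV, 450.0, 459 and 462 and 433, 461 and 486 in WT, and 528, 412 and 510.4 and 489.5, 482 and 466 in MUT, so that the groups overlapped. The log2 values were -0.054 (EV), 0.0090 (WT) and -0.013 (MUT), with 95% intervals of -0.22 to 0.11, -0.16 to 0.18 and -0.18 to 0.15.

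LAMP2 rose in EV and MUT. Its libraries had 207, 207 and 212 CPM untreated and 238, 261 and 273 treated in EV, and 225, 171 and 226 and 282, 255 and 279 in MUT. In WT the values were 166, 167 and 170.4 and 189.8, 188 and 180.1, lower than every library of the other lines at the same condition, although 1 untreated MUT library was close. No treated library overlapped the untreated ones of its own line. The log2 fold changes were 0.30 (EV), 0.15 (WT) and 0.39 (MUT) (adjusted p = 0.00624, 0.158 and 6.43e-04). Without untreated MUT replicate 2 the MUT value was 0.23 and still passed. LAMP2 has several splice forms, which counts per gene do not separate.

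MCOLN1, the calcium channel, passed in WT, a call lost without untreated replicate 2 or treated replicate 3; the difference between lines is tested further on. Libraries held 24, 22.4 and 23.9 CPM untreated and 27.3, 26.8 and 30.1 treated in WT, 20.7, 22.5 and 20.5 and 23.6, 27.2 and 23.2 in EV, and 27.7, 27.9 and 32.4 and 30.8, 30 and 33.7 in MUT. The groups were apart in EV and WT and overlapped in MUT. On the log2 scale this gave 0.21 (EV), 0.26 (WT) and 0.10 (MUT) (adjusted p = 0.0587, 0.0185 and 0.323). MCOLN1 overlaps PNPLA6 on the same strand in the authors' table, and how shared reads were assigned is not given in the sources used here.

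**Figure D4:**
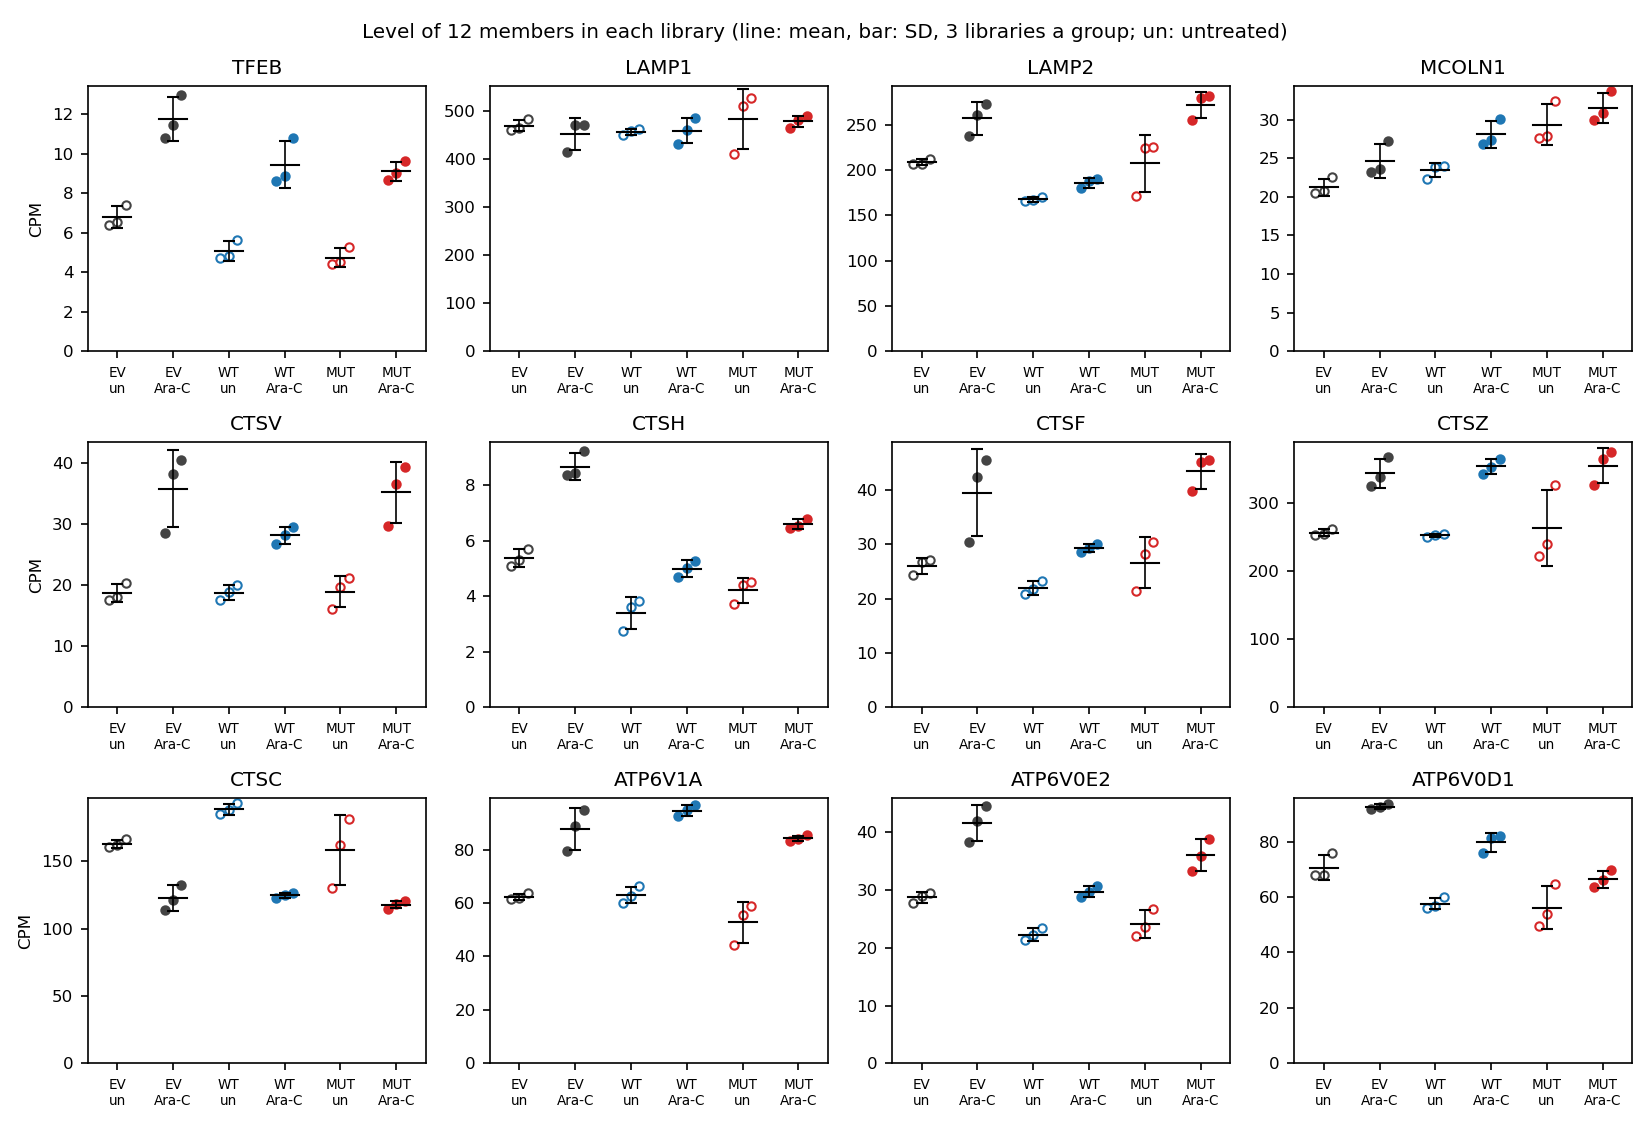
CPM (y axis from 0) of 12 members in each library; open points are untreated and filled points Ara-C libraries, in grey for EV, blue for WT and red for MUT, with the mean as a line and the SD as a bar (n = 3). TFEB is higher in all treated groups, LAMP1 is level, and CTSC is lower in all treated groups.

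Among the cathepsins 5 of 13 rose in EV, 4 in WT and 4 in MUT, while 1, 3 and 1 fell. In either direction this was 46.2% (EV), 53.8% (WT) and 38.5% (MUT), beside 49.1%, 49.0% and 56.3% of all genes. CTSV, a cysteine protease closely related to CTSL, rose from 20.4, 18.1 and 17.6 CPM to 40.6, 28.6 and 38.2 in EV, from 20, 18.9 and 17.5 to 28.2, 26.7 and 29.6 in WT and from 19.7, 16.1 and 21.1 to 39.3, 29.7 and 36.6 in MUT. Treated and untreated libraries did not overlap in any line. Its log2 fold changes were 0.94 (EV), 0.58 (WT) and 0.89 (MUT) (SE 0.13, 0.13 and 0.13, adjusted p = 6.88e-06, 9.53e-04 and 8.77e-06).

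CTSH, an aminopeptidase as well as an endopeptidase, was low but rose in each line. EV libraries moved from 5.31, 5.08 and 5.71 CPM to 8.36, 8.42 and 9.23, WT libraries from 3.82, 2.75 and 3.63 to 5.28, 5.02 and 4.69, and MUT libraries from 3.71, 4.53 and 4.39 to 6.54, 6.46 and 6.79. The log2 fold changes were 0.69 (EV), 0.55 (WT) and 0.65 (MUT) (adjusted p = 3.11e-04, 0.00334 and 5.52e-04). Treated WT libraries only reached the range of untreated EV libraries, a difference between the lines described below.

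CTSF, a cysteine protease, rose by log2 fold changes of 0.61 (EV), 0.42 (WT) and 0.70 (MUT) (adjusted p = 6.20e-04, 0.0121 and 1.03e-04). Its EV libraries were at 27.1, 26.7 and 24.3 CPM untreated and 45.6, 30.4 and 42.5 treated, and the treated ones spread widely. CTSZ, a carboxypeptidase and, by canonical transcript length, the most abundant cathepsin per kb in untreated EV, rose by 0.42 (EV), 0.49 (WT) and 0.43 (MUT) (adjusted p = 0.00174, 5.09e-04 and 0.00114). It went from 253, 254 and 250.3 CPM to 343, 353 and 365 in WT with groups far apart. In MUT it went from 239.8, 222 and 326 to 364, 326 and 375, where the highest untreated library lay just above the lowest treated one; without untreated replicate 2 the MUT value was 0.29 and still passed.

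CTSC, also called dipeptidyl peptidase 1, which activates granule serine proteases, fell in each line. EV libraries had 162, 161 and 167 CPM untreated and 122, 114 and 133 treated, WT libraries 188, 193 and 185 and 126, 123 and 125, and MUT libraries 162, 130.4 and 182 and 115, 118 and 120.4. Every treated library lay below every untreated library of its own line. On the log2 scale the fold changes were -0.41 (EV), -0.60 (WT) and -0.43 (MUT) (SE 0.087, 0.087 and 0.087, adjusted p = 6.30e-04, 1.28e-05 and 3.76e-04).

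Of the remaining abundant proteases, CTSL and CTSB passed in 1 line each and CTSA and CTSD in none. CTSL, a cysteine protease, passed in EV with 0.39 (SE 0.13, adjusted p = 0.0176) and had 0.30 in WT and 0.26 in MUT (adjusted p = 0.0647 and 0.101); in each line its treated libraries lay above its untreated ones. The EV call was lost without treated replicate 1, when the value was 0.25, or without untreated replicate 2. CTSB, a cysteine protease, passed in WT with -0.21 (SE 0.067, adjusted p = 0.0148), a call lost without untreated replicate 1 or treated replicate 2, and had -0.089 in EV and -0.073 in MUT. CTSA had 0.10 (EV), 0.077 (WT) and 0.079 (MUT) and the aspartic protease CTSD had 0.079 (EV), -0.016 (WT) and -0.023 (MUT). CTSL and CTSV share sequence, so reads could be split between them, depending on counting that is not given in the sources used here.

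Members with few reads gave wide intervals. CTSO passed in WT with -1.73 (SE 0.58, adjusted p = 0.0179), but its libraries held 12 to 22 estimated counts untreated and 3 to 9 treated, and the call was lost without any 1 of 3 WT libraries (untreated replicate 1, treated replicates 2 and 3). CTSK had 0.44 (EV), -0.85 (WT) and -0.016 (MUT), with 6 to 40 estimated counts a library over all groups, and CTSE had 0.45 (EV), 0.62 (WT) and 0.25 (MUT) with 2 to 24; neither passed. CTSS had -0.056 (EV), -0.47 (WT) and -0.60 (MUT) and did not pass either.

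In the V0 sector 2 of 8 members rose and 2 fell in EV, 3 and 0 in WT, and 3 and 3 in MUT. The shares in either direction were 50% (EV), 37.5% (WT) and 75% (MUT), beside 49.1%, 49.0% and 56.3% of all genes. ATP6V0E2, an isoform of the small subunit e, had log2 fold changes of 0.53 (EV), 0.42 (WT) and 0.58 (MUT) (adjusted p = 2.95e-05, 4.62e-04 and 9.70e-06). Its libraries went from 29, 29.4 and 27.7 CPM to 38.3, 44.5 and 41.9 in EV, from 21.3, 23.4 and 22.2 to 30.6, 29.7 and 28.8 in WT and from 22, 23.6 and 26.7 to 38.8, 33.3 and 35.8 in MUT. The groups did not overlap within any line. ATP6V0D1, which links the ring to the central stalk, rose from 75.8, 68 and 68.1 CPM to 93.5, 91.7 and 92.5 in EV and from 56.9, 56 and 60 to 75.9, 81.2 and 81.9 in WT. In MUT it went from 49.6, 54.1 and 64.8 to 63.6, 69.7 and 66 with 1 untreated library inside the treated range. Its log2 fold changes were 0.39 (EV), 0.47 (WT) and 0.24 (MUT) (adjusted p = 4.60e-04, 8.04e-05 and 0.0151), and the MUT value was 0.16 (adjusted p = 0.103) without untreated replicate 1.

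The other isoform of subunit e, ATP6V0E1, which is more abundant per kb, fell in MUT from 144, 129 and 162 CPM to 109.9, 107 and 105, with -0.44 (SE 0.089, adjusted p = 3.52e-04). In EV and WT it had -0.19 and -0.16 and did not pass. The ring subunit ATP6V0C fell in EV from 246, 255 and 251 CPM to 173, 184 and 205, with no overlap and -0.42 (SE 0.12, adjusted p = 0.00775). In MUT the change was -0.33 (SE 0.12, adjusted p = 0.0275), with overlapping libraries, and it was lost without any 1 of 4 MUT libraries (untreated replicates 1 and 3, treated replicates 1 and 2); in WT it was -0.13 and did not pass. Without untreated replicates 2 and 3 in turn the MUT values of ATP6V0C were -0.55 and -0.16. ATP6V0B, the other ring subunit, fell in MUT (-0.28 (SE 0.10, adjusted p = 0.0272)) and lost this call without untreated replicate 3 (value -0.11) or treated replicate 1 or 2; without untreated replicate 2 it was -0.44. Of the subunit-a genes, ATP6V0A4, known from kidney, passed in WT and MUT, where its libraries held 1.40 to 3.62 CPM, with 0.16 (EV), 0.66 (WT) and 0.64 (MUT) and calls kept in 15 and 14 of 18 fits without 1 library; the MUT value was 0.42 without untreated replicate 1. ATP6V0A2 fell in EV with -0.24 (SE 0.089, adjusted p = 0.0317), kept in 13 of 18 such fits, and ATP6V0A1 did not pass.

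Of the 11 V1 subunit genes 3 rose and 1 fell in EV, 4 and 1 in WT, and 2 and 2 in MUT. Shares in either direction were 36.4% (EV), 45.5% (WT) and 36.4% (MUT), beside 49.1%, 49.0% and 56.3% of all genes. ATP6V1A, the catalytic subunit that hydrolyses ATP, rose from 61.5, 61.8 and 63.7 CPM to 79.4, 88.7 and 94.9 in EV, from 62.7, 66.2 and 60.1 to 96.5, 92.4 and 94.8 in WT, and from 55.4, 44.2 and 58.7 to 83.9, 83.3 and 85.4 in MUT. All treated libraries lay above all untreated ones of the 3 lines. The log2 fold changes were 0.49 (EV), 0.59 (WT) and 0.67 (MUT) (SE 0.085, 0.084 and 0.085, adjusted p = 8.28e-05, 1.12e-05 and 1.79e-06). ATP6V1B2, which pairs with ATP6V1A in the catalytic head, had 0.033 (EV), 0.056 (WT) and -0.10 (MUT) (adjusted p = 0.661, 0.420 and 0.122). The difference between these partners was not tested.

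Of the peripheral stalk and the regulatory subunits, ATP6V1E1 rose in WT (0.48 (SE 0.12, adjusted p = 0.00260)) and in EV (0.30 (SE 0.12, adjusted p = 0.0473), kept in 2 of 18 fits without 1 library) and had 0.17 in MUT. ATP6V1H, a regulatory subunit, passed in WT with 0.26 (SE 0.10, adjusted p = 0.0411), a call kept in 9 of 18 such fits. ATP6V1D of the central stalk passed in WT with 0.29 (SE 0.076, adjusted p = 0.00374); it overlaps EIF2S1 and MPP5 on the opposite strand. ATP6V1G1 fell in MUT with -0.31 (SE 0.099, adjusted p = 0.0112), or -0.17 (adjusted p = 0.0476) without untreated replicate 3, and had -0.22 in EV and -0.23 in WT. ATP6V1F and ATP6V1C1 did not pass in any line.

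ATP6V1E2, an isoform of subunit E known from testis, fell in each line, but its EV call was not held by DESeq2 or by 5 other alternatives and was kept in 6 of 18 fits without 1 library. Its libraries went from 25, 26.5 and 24.5 CPM to 19.1, 20 and 18.6 in MUT, from 20.7, 22.8 and 20.1 to 16.9, 17.9 and 18.7 in WT and from 21.7, 20.8 and 19.2 to 17.7, 18.6 and 17.4 in EV. Log2 fold changes came to -0.20 (EV), -0.25 (WT) and -0.40 (MUT) (adjusted p = 0.0468, 0.0151 and 3.16e-04), and the groups did not overlap. ATP6V1E2 overlaps RHOQ on the opposite strand, and the counting of strand is not given in the sources used here.

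Other rows with an ATP6V1 symbol were uncertain. ATP6V1G2-DDX39B names transcripts that run from ATP6V1G2 into DDX39B, a gene for an RNA helicase. Its libraries went from 138, 138 and 151 CPM to 71, 89.8 and 92.2 in EV, from 146, 147 and 128 to 87.1, 84.5 and 97.4 in WT and from 141, 140.1 and 179 to 77.8, 84.8 and 87.1 in MUT. On the log2 scale this gave -0.76 (EV), -0.65 (WT) and -0.88 (MUT) (adjusted p = 7.39e-06, 3.96e-05 and 8.24e-07). DDX39B itself also fell, with log2 fold changes of -0.41 (EV), -0.42 (WT) and -0.36 (MUT) (adjusted p = 7.40e-04, 6.13e-04 and 0.00196), from 218 CPM in untreated EV, whereas ATP6V1G2 had under 1 CPM untreated. How reads of the shared exons were divided is not given in the sources used here.

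ATP6V1G2, an isoform known from neurons, gave the largest fold change of the members in EV, 2.57 (SE 0.52, adjusted p = 3.90e-04), from 1 to 7 estimated counts a library untreated to 20 to 29 treated. In MUT it passed with 1.30 (SE 0.49, adjusted p = 0.0287), a call lost without untreated replicate 1 or 3 or treated replicate 2 or 3, and in WT it had 1.15 (adjusted p = 0.0587). ATP6V1FNB passed in MUT with 0.72 (SE 0.24, adjusted p = 0.0173), from 1.55, 1.26 and 1.66 CPM to 1.76, 2.97 and 2.66, and lost this call without untreated replicate 2 or treated replicate 2 or 3. ATP6V1C2, which overlaps PDIA6 on the other strand, did not pass.

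Sums over members are given as a description, with no test. They use the scaled libraries, whose factors differed between untreated and treated cells as given above, so the sums depend on the scaling. The 14 cathepsins summed to 1323 ± 15 CPM (SD, n = 3) in untreated and 1425 ± 99 in treated EV, 1342 ± 9.1 and 1356 ± 34 in WT, and 1323 ± 175 and 1404 ± 67 in MUT. The V0 genes summed to 678.5 ± 19 and 618.9 ± 23 CPM in EV, 647.1 ± 1.9 and 639.8 ± 26 in WT, and 686.8 ± 131 and 586.9 ± 19 in MUT. The 11 V1 subunit genes summed to 593.9 ± 15 and 648.9 ± 1.6 CPM in EV, 591.8 ± 4.7 and 674.1 ± 4.7 in WT, and 594.2 ± 56 and 599 ± 11 in MUT. With ATP6V1FNB and the readthrough added, of which the readthrough fell in each line, the sums were 738.8 ± 8.7 and 736.1 ± 10.2 CPM in EV, 734.3 ± 13 and 766 ± 11 in WT, and 748.9 ± 79 and 684.8 ± 13 in MUT, so that in EV and MUT the treated mean was above the untreated one without these rows and below it with them.

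Whether Ara-C acted differently between the lines was tested by interaction contrasts. None of the 38 members passed in MUT against EV, MUT against WT or WT against EV with edgeR, where 0.214%, 1.00% and 0.285% of all genes did. At an unadjusted p under 0.05 there were 1 (ATP6V1D), 2 (ATP6V0E1 and ATP6V1D) and 1 (CTSK), and DESeq2 called 0, 1 (ATP6V1D) and 0. Shares over all genes are not given for the unadjusted threshold or for DESeq2, so these counts are a description and not a result about the members. ATP6V1D came nearest, with a difference of log2 effects of -0.40 for MUT against WT (95% interval -0.62 to -0.18, edgeR adjusted p = 0.0756). Its WT libraries moved from 116, 109 and 109 CPM to 129.6, 139.6 and 138, and its MUT libraries from 102, 117 and 125 to 104, 112 and 102. Without untreated MUT replicate 1 the count of members lower in MUT than in WT was 1 and without replicate 2 it was 2. For TFEB the difference of effects was 0.15 in MUT against EV (95% interval -0.23 to 0.54), and for LAMP2 it was 0.24 in MUT against WT (-0.0091 to 0.49, adjusted p = 0.342).

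Between the lines themselves fewer members differed. Among untreated cells 2 members were higher and 4 lower in MUT than in EV, where 19.9% of all genes differed (9.88% higher and 10.0% lower). In WT 1 was higher and 6 were lower than in EV, beside 11.7% of all genes (4.30% and 7.36%), and in MUT 5 were higher and 3 lower than in WT, beside 21.2% (11.7% and 9.54%). Among treated cells the counts were 1 and 4 for MUT against EV, beside 14.0% of all genes (6.85% and 7.13%), 1 and 5 for WT against EV, beside 16.5% (7.41% and 9.12%), and 6 and 5 for MUT against WT, beside 19.8% (10.4% and 9.48%). The member shares were 15.8%, 18.4% and 21.1% untreated and 13.2%, 15.8% and 28.9% treated. Leaving out single libraries changed 1 or both counts by more than 1.5 times in all 6 comparisons. Without untreated MUT replicate 2 the untreated counts of MUT against EV were 6 higher and 2 lower, and without replicate 3 they were 2 and 7; for MUT against WT they were 9 and 1, and 5 and 6. Without untreated EV replicate 1, 2 or 3 the 6 members lower in untreated WT than in EV became 3, and without untreated WT replicate 2 they became 2. In treated cells the 4 members lower in MUT than in EV became 10 without untreated MUT replicate 3, a library that enters that comparison only through the shared fit. The 5 lower in WT than in EV became 8 without treated EV replicate 2, and the 6 higher in MUT than in WT became 2 without treated WT replicate 2. DNMT3A and any other difference between the 3 lines cannot be told apart, and the comparisons within a condition share libraries. Of all genes called in untreated MUT against WT 55.1% were higher, but 65.4% with the scaling of DESeq2 (RLE).

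TFEB was lower without treatment in both DNMT3A lines, from the library values given above: -0.52 (SE 0.14, adjusted p = 0.0114) in MUT against EV and -0.43 (SE 0.14, adjusted p = 0.0468) in WT against EV, with no overlap. The MUT call was lost without untreated EV replicate 2, and the WT call was kept in 6 of 18 fits without 1 library. After treatment the differences were -0.37 and -0.31 (adjusted p = 0.0535 and 0.0948).

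Members lower in WT included CTSH, with -0.66 (SE 0.14, adjusted p = 0.00483) untreated and -0.79 (SE 0.14, adjusted p = 4.26e-04) treated against EV, and no library of WT reached the EV range of the same condition. LAMP2 was lower in WT than in EV, with log2 differences of -0.32 untreated and -0.47 treated (adjusted p = 0.0195 and 7.83e-04); the untreated call was lost without any 1 of the 6 libraries compared. Set against WT, MUT was higher in LAMP2 by 0.31 untreated and 0.55 treated (adjusted p = 0.0143 and 1.35e-04); the untreated call was lost without untreated MUT replicate 1 or WT replicate 1, and its value was 0.46 without MUT replicate 2. ATP6V0E2 was lower in WT, with -0.37 untreated and -0.48 treated (adjusted p = 0.00780 and 4.49e-04). It was also lower in untreated MUT than in EV (-0.25) and higher in treated MUT than in WT (0.28) (adjusted p = 0.0451 and 0.0230), calls kept in 5 of 18 and 14 of 18 fits without 1 library. CTSH was higher in treated MUT than in WT by 0.40 (adjusted p = 0.0437), kept in 6 of 18. CTSF was higher in treated MUT than in treated WT, 0.57 (SE 0.13, adjusted p = 0.00303), at 45.4, 39.8 and 45.2 against 29.3, 28.6 and 30 CPM.

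CTSL was lower in MUT than in EV. Untreated MUT libraries had 93.5, 62.8 and 99.6 CPM beside 121, 117 and 118 in EV, and treated ones 101, 101 and 105 beside 183, 125 and 157. The log2 differences were -0.47 (SE 0.13, adjusted p = 0.0158) and -0.60 (SE 0.13, adjusted p = 0.00403); the untreated call was lost without untreated MUT replicate 2, when the value was -0.27.

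ATP6V0D1 was lower than in EV in both DNMT3A lines without treatment, with -0.33 (SE 0.081, adjusted p = 0.00717) in MUT and -0.29 (SE 0.081, adjusted p = 0.0222) in WT, the latter kept in 15 of 18 fits without 1 library. In treated cells it was lower in MUT than in EV, with -0.48 (SE 0.080, adjusted p = 5.14e-04), and than in WT, with -0.26 (SE 0.080, adjusted p = 0.0253), kept in 14 of 18; WT against EV gave -0.22 (adjusted p = 0.0713). MCOLN1 was higher in MUT than in EV, with 0.46 (SE 0.089, adjusted p = 0.00119) and 0.36 (SE 0.087, adjusted p = 0.00944), the latter lost without treated EV replicate 3 or treated MUT replicate 3, and higher in untreated MUT than in WT, with 0.32 (SE 0.088, adjusted p = 0.0129). ATP6V0B was higher in untreated MUT than WT, 0.52 (SE 0.11, adjusted p = 0.00164), at 180.0, 168 and 254 against 143, 142 and 136 CPM, and the highest MUT library stood far from the others; without it the difference was 0.34 and still passed.

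Over all 6 line comparisons 43 member differences passed, of which 20 passed in every fit without 1 library. The count of 20 was made for members only, with no matching count over all genes. Untreated MUT was higher in ATP6V1E2 than EV (0.30 (SE 0.081, adjusted p = 0.0139)) and than WT (0.26 (SE 0.080, adjusted p = 0.0272)), with calls kept in 17 of 18 and 16 of 18 fits without 1 library, and lower than WT in ATP6V1A (-0.25 (SE 0.086, adjusted p = 0.0407)) and CTSC (-0.25 (SE 0.087, adjusted p = 0.0433)), calls kept in 5 and 4 of 18; without untreated MUT replicate 2 these values were -0.11 and -0.10. In treated MUT ATP6V1F was lower than in EV (-0.41 (SE 0.11, adjusted p = 0.0181); 48.2, 40.7 and 42.5 against 66.9, 48.4 and 58.8 CPM), a call lost without treated EV replicate 1 or 3 or treated MUT replicate 2 or 3. ATP6V0E1, ATP6V1D and ATP6V1G1 were lower in treated MUT than in treated WT, with log2 differences of -0.35, -0.35 and -0.32 (adjusted p = 0.00892, 0.00240 and 0.0287); without treated WT replicate 3 the first call was lost, and without any 1 of the 6 libraries compared the last was. The partner of the catalytic subunit, ATP6V1B2, was lower in treated MUT than in EV (-0.27 (SE 0.055, adjusted p = 0.00314)). CTSB was higher in treated MUT than in WT (0.24 (SE 0.067, adjusted p = 0.0166)), kept in 15 of 18, and CTSF was lower in treated WT than in EV (-0.44 (SE 0.13, adjusted p = 0.0224)), kept in 13 of 18.

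The widest line differences that passed came from 2 weakly expressed genes, named here after their values were seen. ATP6V0A1, a subunit-a isoform, was at 3.04, 2.80 and 3.35 CPM in untreated WT beside 1.17, 1.81 and 1.04 in EV and 1.45, 0.691 and 1.60 in MUT, and every WT library was above every library of the other lines. WT exceeded EV by a log2 difference of 1.19 (SE 0.27, adjusted p = 0.00612), and MUT against WT gave -1.28 (SE 0.27, adjusted p = 0.00223). CTSS, a cysteine protease best known from antigen-presenting cells, was at 0.637, 0.476 and 0.165 CPM in untreated WT beside 0.992, 1.52 and 1.17 in EV and 1.35, 1.45 and 1.54 in MUT, which is 3 to 13 estimated counts a library in WT. It differed by -1.50 (SE 0.44, adjusted p = 0.0303) and 1.73 (SE 0.43, adjusted p = 0.00712), and after treatment by -1.91 and 1.60. The untreated WT call against EV was kept in 14 of 18 fits without 1 library, and the treated MUT call against WT in 16 of 18. For ATP6V0A1 the treated differences were 0.83 for WT against EV, kept in 12 of 18, and -1.26 for MUT against WT (adjusted p = 0.0306 and 0.00183).

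Some of these line differences ran with those of nearby genes on the chromosome. ATP6V0D1 lies at chr16:67438014-67481238 (hg38), and of the 89 other tested genes within 2 Mb on each side 35 were lower and 1 higher in untreated MUT than in EV, with a median log2 difference of -0.37. In untreated WT against EV 25 of these 89 were lower and 2 higher (median -0.24). ATP6V0E2 lies at chr7:149872968-149891205, where 26 of 46 neighbours were lower and 0 higher in treated WT than in EV (median -0.49). Around MCOLN1, at chr19:7522626-7534010, 26 of 83 neighbours were higher and 1 lower in untreated MUT than in EV (median 0.27). LAMP2, at chrX:120427827-120469366, had 7 of 27 neighbours lower and 0 higher in treated WT than in EV (median -0.29). By contrast the medians around TFEB (chr6:41683978-41736260), CTSH (chr15:78921058-78949575) and ATP6V0A1 (chr17:42458844-42522612) were -0.069, -0.012 and 0.052 in untreated MUT, treated WT and untreated WT against EV, in which these members passed. Over the 43 member differences that passed, 20 members in all, the neighbours' median was at least 0.2 from 0 in the member's direction in 16, in the opposite direction in 2 and nearer 0 in 25. Among the 185 combinations of a member and a comparison that did not pass, 33 had a median at least 0.2 from 0 in either direction. The part of chromosomal position in these results was not tested.

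**Figure D5:**
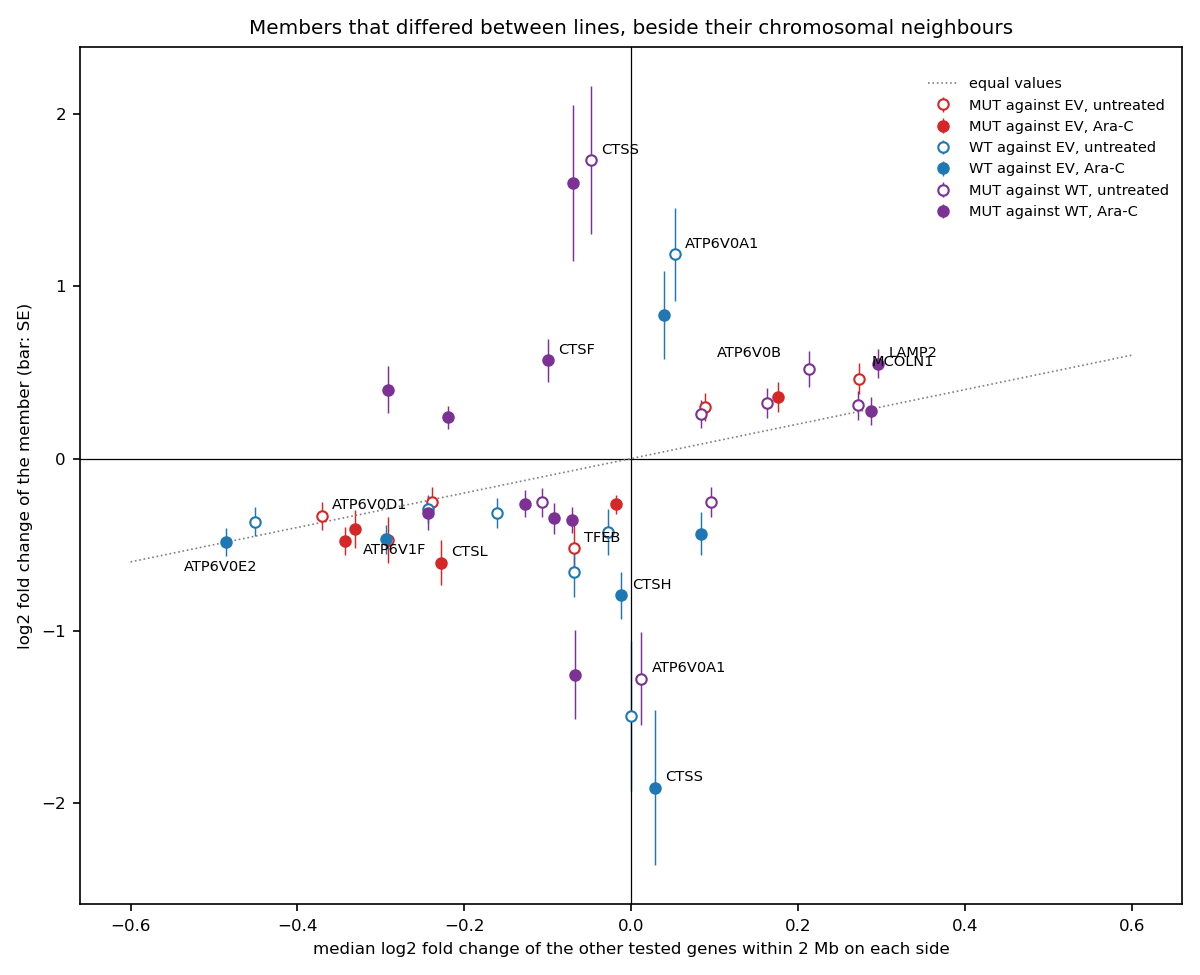
Log2 difference between lines of each member that passed (y axis, bar: SE) against the median log2 difference of the other tested genes within 2 Mb on each side (x axis); colours give the 2 lines compared, open points untreated and filled points Ara-C libraries, and the dotted line marks equal values. ATP6V0E2 and ATP6V0D1 lie near the dotted line, and CTSS, ATP6V0A1, CTSH and TFEB lie far from their neighbours.

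Genes that work with the members are given as counts from lists assembled for this purpose. Of 37 other lysosomal hydrolases and cofactors 25 rose and 2 fell with Ara-C in EV, 19 and 1 in WT, and 26 and 2 in MUT, with medians of 0.39, 0.27 and 0.45 on the log2 scale, against 12 and 5, 13 and 5, and 12 and 7 of the 38 members. The shares that passed were 73% (EV), 54.1% (WT) and 75.7% (MUT), beside 49.1%, 49.0% and 56.3% of all genes, of which 26.1%, 26.3% and 30.4% were higher and 22.9%, 22.7% and 25.9% lower. FUCA1, a fucosidase, went from 13.6 to 56.8 CPM in EV, with log2 fold changes of 2.06 (EV), 2.06 (WT) and 1.95 (MUT) (adjusted p = 1.24e-12, 3.38e-13 and 8.47e-13). MANBA, a mannosidase, had 1.09 (EV), 1.22 (WT) and 1.21 (MUT), and IDUA, an iduronidase, had 2.27 (EV), 2.32 (WT) and 1.58 (MUT) from 0.297 CPM in untreated EV. Among 21 other lysosomal membrane proteins 8 rose and 2 fell in EV, 8 and 1 in WT, and 8 and 4 in MUT, shares of 47.6% (EV), 42.9% (WT) and 57.1% (MUT) that were near those of all genes. LAMP3, a relative of LAMP1 and LAMP2, rose from 3.32 to 21.5 CPM in EV, with 2.69 (EV), 2.40 (WT) and 2.38 (MUT) (adjusted p = 1.41e-09, 3.51e-09 and 3.76e-09), beside SIDT2 with 0.84 (EV), 0.87 (WT) and 0.75 (MUT) and the sialic acid exporter SLC17A5 with 0.91 (EV), 0.36 (WT) and 0.75 (MUT).

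V-ATPase partners (assembly factors, accessory subunits and TCIRG1, which encodes an isoform of subunit a under another name) had 7 of 12 higher and 1 lower in EV, 5 and 1 in WT, and 7 and 1 in MUT, or 66.7% (EV), 50% (WT) and 66.7% (MUT) in either direction. Of all genes 49.1% (EV), 49.0% (WT) and 56.3% (MUT) passed. TCIRG1 rose by 0.73 (EV), 0.63 (WT) and 0.63 (MUT) (adjusted p = 8.59e-06, 3.56e-05 and 2.74e-05) from 45.8 CPM in untreated EV. DMXL1 and DMXL2, large proteins that help join V1 to V0, had 0.49 (EV), 0.48 (WT) and 0.86 (MUT) and 0.67 (EV), 0.90 (WT) and 1.11 (MUT), and all 6 values passed. Of 9 cathepsin inhibitors 4 (EV), 3 (WT) and 5 (MUT) were higher and 0 lower, or 44.4% (EV), 33.3% (WT) and 55.6% (MUT). The cystatin CSTA, the one with the largest mean change among those that passed in all lines, had 2.39 (EV), 2.20 (WT) and 2.63 (MUT), and CST7 had 3.17 (EV), 1.32 (WT) and 2.72 (MUT) from 0.197 CPM in untreated EV and passed in EV and MUT.

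The list of TFEB relatives and lysosomal nutrient sensing was split, with 6 of 21 higher and 7 lower in EV, 4 and 7 in WT, and 8 and 8 in MUT, or 61.9% (EV), 52.4% (WT) and 76.2% (MUT). Here too the shares of all genes were 49.1% (EV), 49.0% (WT) and 56.3% (MUT). TFEC, a relative of TFEB, rose from 2.20 to 13.3 CPM in EV, with 2.60 (EV), 3.00 (WT) and 4.03 (MUT) (adjusted p = 1.76e-07, 3.02e-08 and 4.93e-09). MITF and TFE3, the remaining genes of that family, were picked after their values were seen: MITF had 0.68 (EV), 0.73 (WT) and 0.81 (MUT) and TFE3 -0.32 (EV), -0.27 (WT) and -0.30 (MUT), and all 6 passed. RRAGD, a GTPase of nutrient sensing, rose by 1.31 (EV), 1.42 (WT) and 1.47 (MUT), and MLST8, a subunit of the mTOR complexes, had -0.63 (EV), -0.74 (WT) and -0.99 (MUT). For delivery to the lysosome 4 of 22 were higher and 8 lower in EV, 7 and 4 in WT, and 5 and 4 in MUT, or 54.5% (EV), 50% (WT) and 40.9% (MUT), with the sorting receptor SORT1 at 1.04 (EV), 0.83 (WT) and 1.14 (MUT). Autophagy factors had 6 of 14 higher in each line and 0, 1 and 3 lower in EV, WT and MUT, or 42.9% (EV), 50% (WT) and 64.3% (MUT), with GABARAPL1 at 1.07 (EV), 0.75 (WT) and 0.89 (MUT).

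Set beside the promoter matches, the members with an E-box did not move as a block. Of the 9, CTSF, ATP6V0D1 and ATP6V0E2 rose in all lines, MCOLN1 rose in WT, LAMP1, CTSA and CTSD passed in none, and ATP6V0B and ATP6V1G1 fell in MUT. Among members whose window held no match, TFEB, CTSV, CTSH and CTSZ rose in all lines, and CTSC and the readthrough ATP6V1G2-DDX39B fell in all. ATP6V0A4, ATP6V1E1 and ATP6V1G2 rose in 2 lines and ATP6V0C fell in 2. CTSL and ATP6V1D rose in 1 line, ATP6V0A2 fell in 1, and ATP6V0A1, ATP6V1C2, ATP6V1F and CTSE passed in none. The 14 members without a window, ATP6V1A and ATP6V1E2 among them, are not placed here. The part of the E-box in these results was not tested.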

How the data were processed

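RNA was extracted with a Direct-zol kit and made into libraries with a NEBNext Ultra RNA kit, per the labels' protocols. The authors deposited estimated counts per gene, of which 70.4% were whole numbers; CASAVA, STAR 2.6.1d and build hg38 are named in the submitters' processing notes, while the counting tool, its use of strand and its treatment of multi-mapping reads are not given in the sources used here. A second deposited table holds a normalized signal for 19591 genes, equal to 1 plus a library factor times the estimated count (largest relative deviation 7.32e-06). It was used only for an alternative scaling with the authors' library factors, an alternative chosen after seeing the data.

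Estimated counts were rounded and fitted in R 4.3.3 with edgeR 4.0.16 (filterByExpr, TMM scaling, quasi-likelihood F-test) over all 6 groups of 3 libraries without a replicate block. P-values were adjusted by Benjamini-Hochberg over all 18226 tested genes and called at 0.05. Standard errors were derived from the quasi-likelihood statistic, and 95% intervals use its t quantile. The scripts were tested on simulated data. P-values measure the spread between platings, with the estimate for each gene shared over all 6 groups and not made per line. Over all genes the shared biological coefficient of variation was 0.104, beside 0.216 in untreated MUT alone. Tests with untreated MUT therefore used a smaller spread than that group showed. Library totals of 15.4 to 21.9 M set the precision, and the lowest members had under 30 counts. Exonic length was that of the Ensembl canonical transcript in GENCODE v44. Promoter windows came from RefSeq.

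Per-library values are given for TFEB, LAMP1, LAMP2 and MCOLN1, and for the 3 largest rises and 3 largest falls that passed in each comparison with mean log2 CPM of at least 1 and no overlap; values of other members were added, and the readthrough and ATP6V1FNB were set apart from the V1 subunits, after they were seen. Of each other list up to 3 genes that passed in the most lines with the largest mean change are named. The members and lists were chosen with earlier results of these data known. Alternatives were RLE, upper-quartile and the authors' scaling, no filter, a mean of at least 50 counts, fits of only the groups compared, glmTreat at a log2 fold change of 0.5, a replicate block, DESeq2 1.42.0 and leaving out each library.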

Additional observations from a re-analysis of the deposited data

How the results depend on the processing

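The counts of members that passed depended on the settings as follows. Counts over all genes under the same settings are not given, so a change in a member count was not set against that of all genes. A test against a log2 fold change of 0.5 (glmTreat) left 3 higher and 1 lower with Ara-C in EV, 1 and 0 in WT and 3 and 1 in MUT, and 0 in every line comparison except 1 lower in treated MUT against WT. Upper-quartile scaling gave 3 lower in EV. A mean of at least 50 counts gave 3 lower in EV, 1 lower effect in MUT against WT, 0 higher in untreated and in treated WT against EV, and 7 lower in treated MUT against EV. Fitting only the groups compared gave 9 lower in WT and 4 lower in MUT with Ara-C, 1 higher and 0 lower in untreated MUT against EV, 4 and 10 in untreated WT against EV, 0 and 1 in untreated MUT against WT, 4 higher in treated WT against EV and 12 lower in treated MUT against WT. With RLE scaling 1 lower effect in MUT against WT and 1 lower in untreated MUT against WT were called. DESeq2 gave the same 1 and 1, 4 higher in untreated MUT against EV and 2 higher in treated WT against EV. The authors' factors gave 1 lower in untreated and 3 lower in treated MUT against WT, and no filter gave 1 lower in untreated MUT against WT and 2 higher in treated WT against EV. The cause was not tested. Leaving out each library gave, for Ara-C, 11 to 16 higher and 3 to 7 lower in EV, 11 to 15 and 3 to 7 in WT, and 8 to 13 and 5 to 8 in MUT; 0 to 2 lower effects in MUT against WT; in untreated cells 1 to 6 and 2 to 7 for MUT against EV, 1 to 2 and 2 to 8 for WT against EV, and 3 to 9 and 1 to 6 for MUT against WT; and in treated cells 0 to 1 and 3 to 10, 0 to 4 and 4 to 9, and 2 to 7 and 2 to 8. Signs were compared between settings only for some values. These were the values that passed in the main fit, and those of TFEB, LAMP1, LAMP2 and MCOLN1 with Ara-C and between untreated lines. Other values that did not pass were not compared. Among those compared, the log2 values that changed sign did not pass in either setting. They were LAMP1 with Ara-C in EV (0.024 with upper-quartile scaling, 0.0049 with the stricter filter and -0.085 to 0.0040 without single libraries), in WT (-0.052 with the authors' factors and -0.031 to 0.052 without single libraries) and in MUT (0.029, 0.0027 and -0.16 to 0.054), LAMP1 in untreated MUT against EV (-0.028 to 0.17 without single libraries), and LAMP2 in untreated MUT against EV (0.024 with RLE, 0.0041 with upper-quartile scaling, 0.016 with the authors' factors, 0.014 with the stricter filter, 0.024 with DESeq2 and -0.070 to 0.14 without single libraries). The labels number the replicates alike in each group, but same-numbered deviations correlated between -0.176 and 0.352 over all 45 pairs, with 7 over 0.1, so the numbers were not taken as pairs; a replicate block left all 24 counts within 1.5 times and ended 3 calls (ATP6V0E2 in untreated MUT against EV, CTSH in treated MUT against WT and TFEB in untreated WT against EV). Of all genes with a called difference of effects the share that was higher was 71.8% in MUT against EV, 48.1% with RLE and 46.3% with upper-quartile scaling; 50.8% in MUT against WT, 29.1% with RLE; and 50% in WT against EV, 68.8% with the authors' factors. The spread among 3 libraries, and under 30 counts for CTSE, CTSO, CTSS and ATP6V1G2, limit what could be detected.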
